A study of Mus musculus with 6 samples.

Results

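Natural killer (NK) cells made up about 1 in 100 of the leukocytes captured from SB28 brain tumors by the gate used here, and 188 of them in all were described here. SB28 is a mouse glioma cell line. CD45+ cells, meaning leukocytes by their surface protein CD45, were taken from brain tumors on day 18 after 10000 SB28 cells had been injected into mice and were profiled by droplet-based 3' single-cell RNA sequencing in 2 libraries. The series holds 4 further libraries of sorted neutrophils, 2 from tumor and 2 from blood, all from mice that bore the same tumors; the strain and age of the mice are not given in the sources used here. Mice were perfused through the heart before tumors were taken, and how the CD45+ cells were sorted is not given either. Whether the 2 CD45+ libraries stem from different mice is not stated. The p-values rest on how far differences between cell classes vary between the 2 libraries, and that spread may be technical.

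The NK cells were chosen by measured counts of unique molecular identifiers (UMIs), each of which stands for 1 captured RNA molecule. A member carried at least 2 UMIs of Ncr1, Klrb1c and Klre1 together, 0 UMIs of the CD3 genes Cd3d, Cd3e and Cd3g, at most 2 UMIs of the complement genes C1qa, C1qb and C1qc that mark tumor phagocytes, under 0.5% of UMIs from the neutrophil genes S100a8 and S100a9 and at most 10% from mitochondrial genes, with 200 or more genes seen. These cells are called NK-gated here. They numbered 112 of 9352 kept cells (1.20%, exact Clopper-Pearson 95% interval 0.987% to 1.44%) in CD45+ library 1 and 76 of 8714 (0.872%, 0.688% to 1.09%) in library 2, that is 188 of 18066 kept cells of the CD45+ libraries and of 37213 kept cells in the series. Intervals here cover counting error only. The share depends on the gate: without cells with any C1q UMI it was 0.930% in library 1 and 0.379% in library 2, and at a gate of 1 UMI 1.82% and 1.48%. The same gate took 0 of 4140 and 0 of 6582 cells in the sorted tumor neutrophil libraries and 0 of 3115 and 0 of 5310 in the blood neutrophil libraries, which allows shares of up to 0.0725%, 0.0456%, 0.0963% and 0.0565%. That sort kept CD11b+ cells with high LY6G, and the gate itself leaves out cells rich in the neutrophil genes S100a8 and S100a9. These counts of 0 were therefore largely set in advance and cannot show how specific the gate is. The cells set against them were 400 CD3+ cells, 255 and 145 by library, with at least 2 UMIs of the CD3 genes under the same limits on C1q, S100 genes, gene number and mitochondrial share. Of these, 174 (114 and 60) carried Cd8a or Cd8b1 and no Cd4 UMI and are called CD8-gated. For background shares, B-gated cells carried at least 2 UMIs of Cd79a and Cd79b (182 and 51 cells), and C1q-high phagocytes at least 10 UMIs of the C1q genes (3359 and 3893 cells), both with 0 UMIs of the CD3 and NK gate genes.

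NK cells are innate lymphocytes that kill tumor and infected cells without prior sensitisation. They weigh signals from germline-encoded activating and inhibitory receptors, in mice largely the Ly49 lectins and the NKG2 and NKR-P1 families, many of which read MHC class I on the target. Killing proceeds through granules that hold perforin and granzymes, and NK cells also secrete interferon gamma and the chemokines XCL1 and CCL5, which draw dendritic cells into tumors. The transcription factors Eomes and T-bet guide their development.

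NK-gated cells were shallower than the cells they were compared with. Their median was 2953 and 4984 UMIs per cell by library, against 5049 and 6026 in CD3+ cells, and their summed counts were 483445 and 516399 UMIs. Few barcodes were shared between libraries: 162 barcodes of CD45+ library 1 also appeared in a sorted tumor library, which is 2.45% of the smaller of these, other pairs shared between 3 and 35, and 0 and 1 NK-gated cells carried such a barcode. Of the genes that chose the members, Klrb1c had a UMI in 86.6% and 86.8% of them, Klre1 in 77.7% and 89.5% and Ncr1, the activating receptor NKp46, in 45.5% and 43.4%. At the edge of the gate, 18 and 8 members had exactly 2 UMIs of the gate genes, and Gzma was seen in 66.7% and 12.5% of those; 58 and 53 cells with 1 UMI stayed outside, and Gzma was seen in 15.5% and 5.66% of those. Another 22 and 20 cells met the gate except for more than 2 C1q UMIs, and 37 and 16 of the CD3+ cells carried at least 2 UMIs of the NK gate genes. Gzma, the granzyme that was also used to label these cells, had 2978 and 2540.1 CPM in NK-gated cells, against 162 and 133 CPM in CD3+ cells; this is a description with no test.

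Counts were summed per library and class, and a level is given as CPM, the count in 1000000 UMIs of a sum, scaled by TMM totals for tested genes. NK-gated sums differed from CD3+ sums in 287 genes that were higher, which is 3.02% of the 9514 genes tested, and in 248 that were lower, which is 2.61% (edgeR quasi-likelihood test with the library as a block, Benjamini-Hochberg adjusted p under 0.05). All of these lay on the same side in both libraries, and 226 of the higher and 221 of the lower differed at least 2-fold. A call over these same 2 libraries favors such agreement. It therefore adds no support, here or where called genes are compared by library below. The median log2 change over all tested genes was -0.01. With 2 sums per class, values that do not overlap between classes are a description and no test. The share of all genes with such values was not counted. Where values are said below not to overlap, this describes the sums. It adds no support to a call or to a gene that did not pass. Without the library block the counts were 136 and 121 genes. The gates themselves parted the classes on NK and CD3 genes, so genes that go with these in single cells were not free of the choice. In sums over cells, fewer cells that carry an RNA and less of it per cell cannot be told apart. Adjusted p-values below come from this fit, each change is NK-gated over CD3+ cells, and the gene lists were assembled by role with earlier results known. Counts of calls per list against CD3+ cells are to be read beside the 3.02% higher and 2.61% lower over all genes tested. The plot of fold changes against level places the genes named here among all genes tested.

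**Figure D1:**
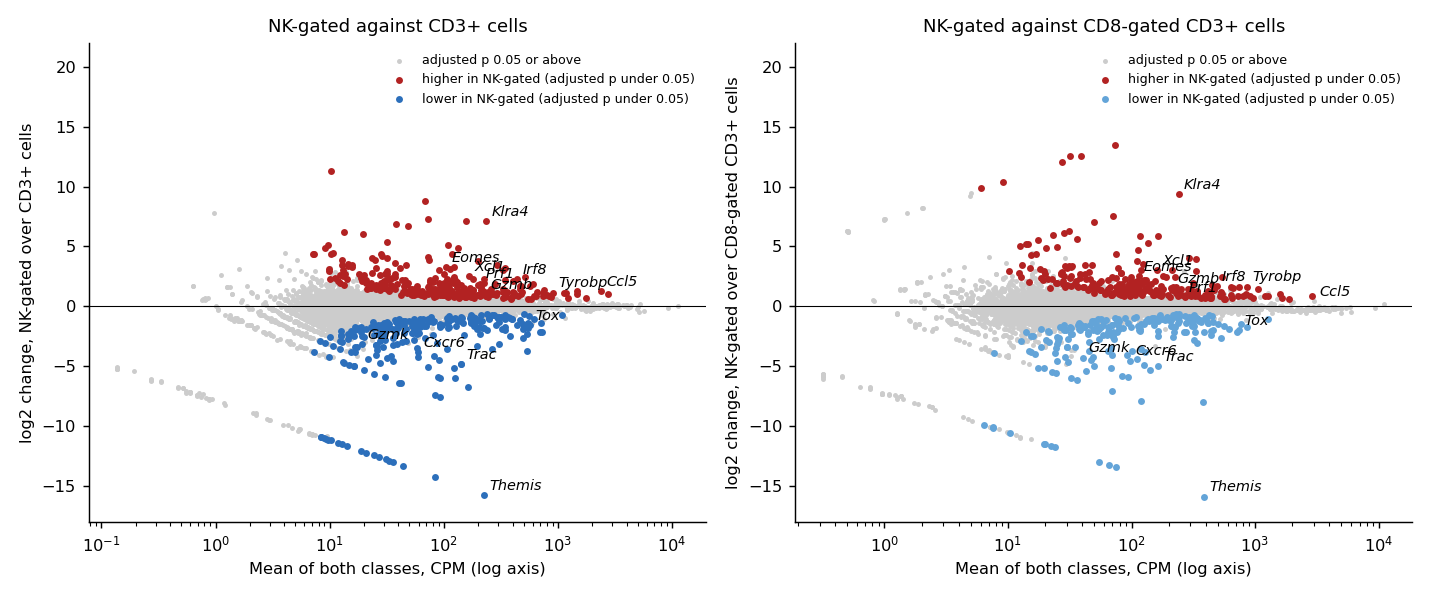
Fitted log2 change (NK-gated over the compared class) of each tested gene against its mean level in CPM on a log axis, for CD3+ cells (left) and CD8-gated CD3+ cells (right), with genes past adjusted p under 0.05 in color. Ly49 gene Klra4 lies far above 0 and Trac far below it in both panels; the diagonal rows at the outer edges are genes with 0 UMIs in 1 class, whose fitted change is no bound.

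Activating receptors were often higher in NK-gated cells, many of them by a wide margin: 8 of 16 tested genes rose and 1 fell, with a median log2 change of 1.72. Klra4, which encodes Ly49D, had 478 and 458 CPM in NK-gated cells, against 5.47 and 0.773 CPM in CD3+ cells (log2 change 7.11 ± 0.36 SE, adjusted p = 2.35e-05). Klra8, which encodes Ly49H, had 325 and 298 CPM in NK-gated cells, against 0 and 5.41 CPM in CD3+ cells (log2 change 7.09 ± 0.52 SE, adjusted p = 7.94e-05). Both genes were thus near 0 in CD3+ cells of either library. Klri2, whose product pairs with that of the gate gene Klre1, had 203 and 223 CPM in NK-gated cells, against 4.92 and 7.73 CPM in CD3+ cells (log2 change 5.11, adjusted p = 2.35e-05). Klrk1, which encodes NKG2D, a receptor for stress-induced ligands, had 392 and 485 CPM in NK-gated cells, against 101 and 147 CPM in CD3+ cells (log2 change 1.84, adjusted p = 0.000262). These NK-gated values exceeded both CD3+ values, by a smaller factor for Klrk1, which both classes carried. Klrb1a, Klrb1f, Klrc2 and Cd244a also rose, with log2 changes of 3.60 (3.02 and 4.46 by library), 4.03 (5.34 and 3.29 by library), 1.60 and 2.03. The member that fell was Cd2, an adhesion receptor of T and NK cells, with 73.7 and 114 CPM in NK-gated cells, against 241 and 257 CPM in CD3+ cells (log2 change -1.42, adjusted p = 0.00253). The call of Klrb1a ended at 1000 UMIs a cell. Fcgr3, the antibody receptor CD16, had 102 and 84.7 CPM in NK-gated and 108 and 113 CPM in CD3+ cells and did not pass (adjusted p = 0.623).

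Inhibitory receptors split by family. Of 18 tested, 4 rose, all of them Ly49 or NKR-P1 lectins, and 4 fell, all of them checkpoint receptors, with a median log2 change of 0.01. Klrb1b, which encodes the inhibitory NKR-P1B, had 556 and 516 CPM in NK-gated cells, against 33.9 and 67.3 CPM in CD3+ cells (log2 change 3.45 ± 0.29 SE, adjusted p = 0.000105). Klra9 had 139 and 137 CPM in NK-gated cells, against 3.83 and 13.1 CPM in CD3+ cells (log2 change 4.14, adjusted p = 0.000527), and Klra3 and Klra7 had log2 changes of 3.23 (2.46 and 4.65 by library) and 2.05. On the other side, Pdcd1, which encodes PD-1, had 23.9 and 9.62 CPM in NK-gated cells, against 209 and 182 CPM in CD3+ cells (log2 change -3.56 ± 0.30 SE, adjusted p = 0.000158). Ctla4 had 57.8 and 67.4 CPM in NK-gated cells, against 482 and 609 CPM in CD3+ cells (log2 change -3.14, adjusted p = 0.0012). Lag3 and Havcr2, which encodes TIM-3, also fell, with log2 changes of -3.17 (-3.76 and -2.54 by library) and -1.72. All 4 checkpoint genes thus stayed below both CD3+ values in each library. Klrc1, which encodes NKG2A, had 127 and 159.7 CPM in NK-gated and 98.9 and 119.9 CPM in CD3+ cells (adjusted p = 0.503), and Tigit had 61.8 and 84.7 CPM in NK-gated and 67.2 and 62.6 CPM in CD3+ cells (adjusted p = 0.813). The call of Klra7 ended without the library block, and that of Havcr2 when cells with any C1q UMI were left out, which left 87 and 33 members.

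Ly49 genes lie side by side on chromosome 6, and their sequences bear on which counts can be told apart. Klra4 spans chr6:130043731-130067271, Klra8 chr6:130115226-130129898, Klra9 chr6:130178675-130193112, Klra7 chr6:130218605-130233322 and Klra3 chr6:130323289-130337574 (mm10, GENCODE vM21, all protein-coding on the minus strand). The promoters of Klra4, Klra8, Klra9 and Klra3 are shown, and the longest run common to these 4 has 17 bases. The sequences are from RefSeq (GRCm38.p6), from 250 bases before to 50 after the start, 5′ to 3′, and capitals mark the shared run. They lie at chr6:130067222-130067521, minus strand for Klra4, chr6:130129849-130130148, minus strand for Klra8, chr6:130193063-130193362, minus strand for Klra9 and chr6:130337577-130337876, minus strand for Klra3.
Klra4: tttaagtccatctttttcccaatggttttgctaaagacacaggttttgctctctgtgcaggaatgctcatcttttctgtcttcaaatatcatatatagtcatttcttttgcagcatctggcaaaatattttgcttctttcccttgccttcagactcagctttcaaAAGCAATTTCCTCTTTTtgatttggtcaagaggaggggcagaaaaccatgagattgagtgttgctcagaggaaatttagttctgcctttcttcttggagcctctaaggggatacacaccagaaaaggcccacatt
Klra8: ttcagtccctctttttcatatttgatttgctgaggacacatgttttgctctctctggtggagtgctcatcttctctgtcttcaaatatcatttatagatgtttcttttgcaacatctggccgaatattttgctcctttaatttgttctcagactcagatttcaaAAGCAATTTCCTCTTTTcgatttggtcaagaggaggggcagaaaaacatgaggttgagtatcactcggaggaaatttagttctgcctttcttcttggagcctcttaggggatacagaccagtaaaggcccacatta
Klra9: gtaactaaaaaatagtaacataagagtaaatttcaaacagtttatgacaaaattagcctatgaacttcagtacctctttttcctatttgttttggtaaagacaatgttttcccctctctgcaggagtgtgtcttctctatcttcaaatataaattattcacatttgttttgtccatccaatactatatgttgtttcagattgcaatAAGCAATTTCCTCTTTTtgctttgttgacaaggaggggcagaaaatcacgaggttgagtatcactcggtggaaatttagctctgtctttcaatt
Klra3: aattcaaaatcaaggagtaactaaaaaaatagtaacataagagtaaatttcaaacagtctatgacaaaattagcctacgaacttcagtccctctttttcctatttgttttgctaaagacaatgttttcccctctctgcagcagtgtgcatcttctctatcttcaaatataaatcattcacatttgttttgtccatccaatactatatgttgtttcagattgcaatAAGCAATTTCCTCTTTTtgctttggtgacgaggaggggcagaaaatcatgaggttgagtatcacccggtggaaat
Global alignments used these fixed windows and counted gaps as mismatches. The Klra4 and Klra8 promoters were 86.0% identical and those of Klra3 and Klra9 85.0%. The other pairs among these 4 lay between 45.5% and 53.0%. The shared run lies at different places in the windows, and such an offset lowers identity. The lower values therefore do not show that those promoters are unlike. The run was sought in these 4 promoters, and the listed promoters of Klra1 and Klra7 do not hold it. Reads of a 3' assay come from the other end of the transcript. The last 300 bases of the longest transcripts were compared there by the same measure. They were 98.7% identical between Klra3 and Klra9, so their counts are uncertain, and 56.4% identical between Klra4 and Klra8. An offset between annotated ends would lower such values too. Klra4 was closest to Klra1 there (83.2%), and Klra8 to Klra3 (80.3%) and Klra9 (79.9%), and whether the Klra4 and Klra8 counts share reads with these genes was not tested.

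The number of Ly49 genes seen differed between members, in cells that were not thinned. Of the 6 genes Klra1, Klra3, Klra4, Klra7, Klra8 and Klra9, 21 of 112 members in library 1 and 16 of 76 in library 2 had no UMI, and 26 and 14 had UMIs of 1 gene. UMIs of 2 genes were seen in 35 and 19 members, of 3 in 21 and 17, of 4 in 9 and 8 and of 5 in 0 and 2. Klra4 was seen in 44.6% and 51.3% of members, Klra8 in 39.3% and 42.1%, Klra7 in 30.4% and 43.4% and Klra9 in 32.1% and 30.3%. Klra4 and Klra8 were seen together in 28 members of each library, more often than any other pair. Both were also among the genes seen most often, and what this alone would give was not computed. A gene that was not seen may still be present, since members held few UMIs. Whether members differ beyond what depth gives was not tested, and counts of Klra3 and Klra9 are uncertain. At 1000 UMIs a cell, Klra8 was seen in 24.3% and 19.7% of NK-gated cells, and in 0 of 254 and 0 of 145 CD3+ cells, which allows up to 1.18% and 2.07%.

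**Figure D2:**
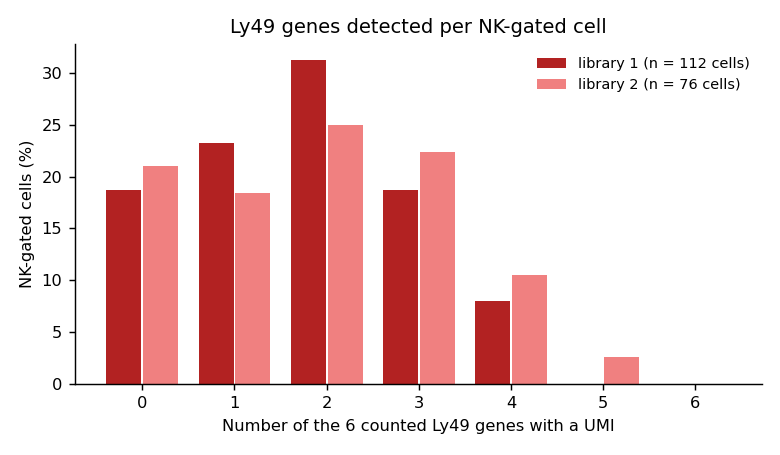
Share of NK-gated cells in percent (bars, library 1 dark and library 2 light) by the number of 6 Ly49 genes with at least 1 UMI. In most members 1 to 3 of the genes were seen, and in none all 6.

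Many of these receptors lie together in the NK gene complex on chromosome 6. Between the first and last gene of the Klra to Klrk families (chr6:128609227-131247362, mm10), 26 genes were tested besides 2 of the gate genes; 13 rose, 2 fell (Olr1 and Gm156) and the median log2 change was 1.72, beside -0.01 over all genes tested. The interval was set after values were seen. Besides the receptors named above, Clec2i, a lectin of the family that binds NKR-P1 receptors, rose with a log2 change of 1.54. Klrd1, which encodes CD94, the partner of the NKG2 receptors, had 327 and 772 CPM in NK-gated and 187 and 366 CPM in CD3+ cells and did not pass (adjusted p = 0.131). It did pass at 1000 UMIs a cell, without cells with C1q UMIs, without the cells of highest doublet score, without CD3+ cells that carried NK gate UMIs, with the 2 classes fitted alone and with no filter on low counts.

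Among signalling partners of the receptors, 4 of 9 rose and 1 fell (median log2 change 0.83), and of 18 kinases and enzymes close to the receptor 2 rose and 2 fell (median 0.21). Tyrobp, which encodes DAP12, the adaptor of Ly49D and Ly49H, had 1321 and 1193 CPM in NK-gated cells, against 585 and 547 CPM in CD3+ cells (log2 change 1.15 ± 0.16 SE, adjusted p = 0.00206). Fcer1g had 1559.8 and 1495 CPM in NK-gated cells, against 746 and 684 CPM in CD3+ cells (log2 change 1.09, adjusted p = 0.00244). Tyrobp is also a phagocyte gene: at 1000 UMIs a cell it was seen in 71.2% and 60.5% of NK-gated cells, 21.3% and 15.2% of CD3+ cells, 12.3% and 9.80% of B cells gated on Cd79a and Cd79b and 84.3% and 82.2% of C1q-high phagocytes, at median depths of 2953 and 4984, 5049 and 6026, 2217 and 3652, and 11464 and 17837 UMIs. Txk, a Tec family kinase, had 910.4 and 966 CPM in NK-gated cells, against 259 and 267 CPM in CD3+ cells (log2 change 1.84 ± 0.22 SE, adjusted p = 0.000926). Plcg2 rose as well, with 95.6 and 73.1 CPM in NK-gated cells, against 38.8 and 24.0 CPM in CD3+ cells (log2 change 1.42, adjusted p = 0.00431), while its paralog Plcg1, the phospholipase of T cell receptor signalling, had 0 UMIs in NK-gated cells, against 45.4 and 37.9 CPM in CD3+ cells, and was at least 14.8-fold lower (against 3 counts over the class). The 2 genes therefore lay on opposite sides in both libraries. Lat, the T cell adaptor, had 19.9 and 23.1 CPM in NK-gated cells, against 101 and 98.2 CPM in CD3+ cells (log2 change -2.21, adjusted p = 0.00433), and Zap70, which acts just above it, had 35.9 and 53.9 CPM in NK-gated cells, against 125 and 106 CPM in CD3+ cells (log2 change -1.35, adjusted p = 0.0462). With cells that had any C1q UMI left out, Tyrobp, Fcer1g, Sh2d1b1 and Lat2 no longer passed. Without the library block, Sh2d1b1, Lat2, Plcg2 and Zap70 no longer passed, and at 1000 UMIs a cell Lat2, Plcg2 and Zap70 did not. Zap70 and Lat2 also missed at a gate of 3 UMIs, Zap70 by DESeq2 and without CD3+ cells that carried NK gate UMIs, and Lat2 with no filter.

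**Figure D3:**
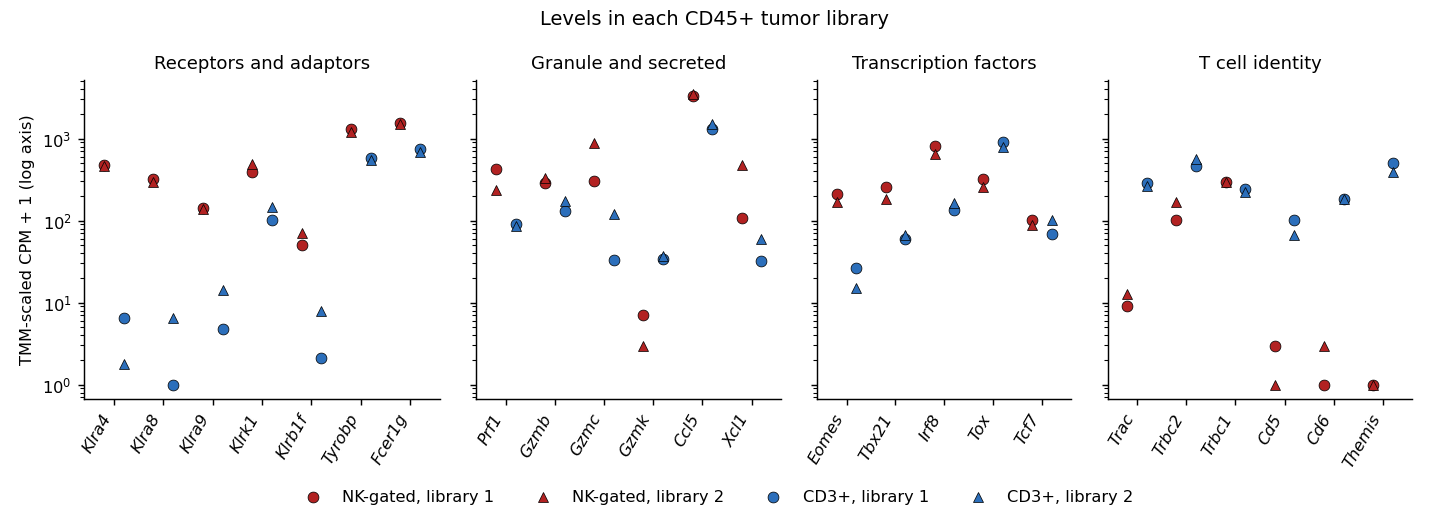
Level of named genes in TMM-scaled CPM plus 1 on a log axis, with NK-gated sums in red left of CD3+ sums in blue, circles for library 1 and triangles for library 2. The Ly49 genes and Eomes stand apart by more than the spread between libraries, Trac, Cd5, Cd6 and Themis lie far lower in NK-gated cells, and Trbc1 lies close to its level in CD3+ cells.

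Most T cell genes were low or unseen in NK-gated cells: 15 of 18 tested members of the list fell and 0 rose (median log2 change -5.37), and 0 were higher at an unadjusted p under 0.05 or by DESeq2. Members with 0 UMIs in NK-gated cells enter that median at their fitted change, which is no bound; at their bounds it is -4.22. Themis, a regulator of T cell receptor signalling, had 0 UMIs in NK-gated cells, against 509 and 386 CPM in CD3+ cells, at least 160.4-fold lower. Cd8a, Foxp3 and Cd4 also had 0 UMIs and were at least 59.1-fold, 25.6-fold and 13.6-fold lower. Trac, the constant segment of the T cell receptor alpha chain, had 7.97 and 11.5 CPM in NK-gated cells, against 285 and 264 CPM in CD3+ cells (log2 change -4.81 ± 0.34 SE, adjusted p = 3.83e-05). Cd6 had 0 and 1.92 CPM in NK-gated cells, against 185 and 182 CPM in CD3+ cells, from 1 UMI in NK-gated cells (count ratio CD3+ over NK-gated cells 193, 95% interval 34.5 to 7631 for counting error only). Bcl11b, the factor that commits cells to the T lineage, had 3.98 and 1.92 CPM in NK-gated cells, against 187 and 165 CPM in CD3+ cells, from 3 UMIs in NK-gated cells (count ratio CD3+ over NK-gated cells 62.4, 95% interval 21.2 to 303 for counting error only). None of these overlapped between the classes, though they were picked among genes that fell. Trbc1, a constant segment of the beta chain, went otherwise: it had 291 and 296 CPM in NK-gated cells, against 244 and 224 CPM in CD3+ cells (log2 change 0.34, adjusted p = 0.65), and its paralog Trbc2 had 102 and 169 CPM in NK-gated cells, against 461 and 565 CPM in CD3+ cells (log2 change -1.92, adjusted p = 0.00754). At 1000 UMIs a cell Trbc1 was seen in 32.4% and 22.4% of NK-gated cells, 18.1% and 16.6% of CD3+ cells and 0.559% and 0% of B-gated cells. Tcf7 and Lef1, factors of early T cells and of NK precursors, had log2 changes of 0.17 and -0.45 and did not pass (adjusted p = 0.882 and 0.283). Cd28, Cd8a and Camk4 did not pass without the library block, nor did Cd8a and Camk4 by DESeq2.

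Killing genes were mixed. Of 20 granule genes tested besides Gzma, 4 rose and 2 fell, with a median log2 change of 0.25. Prf1, which encodes the pore-forming perforin, had 420.3 and 233 CPM in NK-gated cells, against 89.1 and 84.3 CPM in CD3+ cells (log2 change 1.88 ± 0.21 SE, adjusted p = 0.000517). Gzmc had 305 and 872 CPM in NK-gated cells, against 32.2 and 118 CPM in CD3+ cells (log2 change 3.02, adjusted p = 0.000843). Serpinb9, an inhibitor that shields killer cells from granzyme B, had 751 and 675 CPM in NK-gated cells, against 191 and 246 CPM in CD3+ cells (log2 change 1.71, adjusted p = 0.000855). Each stood above both CD3+ values, although Gzmc differed between the NK-gated sums of the 2 libraries by more than 2-fold. Other granzymes ran the other way. Gzmk had 5.98 and 1.92 CPM in NK-gated cells, against 32.8 and 36.3 CPM in CD3+ cells (log2 change -3.14, adjusted p = 0.0289), and Gzmf, at 3 UMIs in NK-gated cells, had 0 and 5.77 CPM in NK-gated cells, against 92.4 and 552 CPM in CD3+ cells (count ratio CD3+ over NK-gated cells 99.1, 95% interval 33.8 to 481 for counting error only). Gzmb had 285 and 327 CPM in NK-gated cells, against 131 and 175 CPM in CD3+ cells and did not pass (log2 change 1.01, adjusted p = 0.0963), nor did Nkg7, a granule membrane protein, with 968 and 897 CPM in NK-gated cells, against 615 and 593 CPM in CD3+ cells (log2 change 0.62, adjusted p = 0.199). Both lay above both CD3+ values; Gzmb passed at 1000 UMIs a cell, with the 2 classes fitted alone and with no filter, and Nkg7 in the first 2 of these, without cells with C1q UMIs and without CD3+ cells that carried NK gate UMIs. Granzymes c to g are close paralogs, so their counts may be split among them. Of 4 death ligands tested Fasl alone passed, with 169 and 108 CPM in NK-gated cells, against 63.4 and 69.6 CPM in CD3+ cells (log2 change 1.05, adjusted p = 0.0355), and it did not pass without the block, by DESeq2, at 1000 UMIs a cell or without cells with C1q UMIs. Without the block Gzmc, Ctsw and Gzmk did not pass, nor did Gzmk without cells with C1q UMIs.

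Promoters of Prf1 (chr10:61297586-61297885, plus strand) and Gzma (chr13:113100932-113101231, minus strand) are shown because both hold the RUNX site TGTGGT, searched on both strands, while Runx3 was among the factors that rose; capitals mark it, and the sequences are from RefSeq (GRCm38.p6), 5′ to 3′.
Prf1: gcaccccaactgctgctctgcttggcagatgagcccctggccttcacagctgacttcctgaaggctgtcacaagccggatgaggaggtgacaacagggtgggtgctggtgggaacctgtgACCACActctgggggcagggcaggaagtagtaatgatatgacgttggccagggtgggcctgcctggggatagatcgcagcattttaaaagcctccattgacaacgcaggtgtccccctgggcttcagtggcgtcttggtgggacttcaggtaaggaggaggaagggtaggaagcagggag
Gzma: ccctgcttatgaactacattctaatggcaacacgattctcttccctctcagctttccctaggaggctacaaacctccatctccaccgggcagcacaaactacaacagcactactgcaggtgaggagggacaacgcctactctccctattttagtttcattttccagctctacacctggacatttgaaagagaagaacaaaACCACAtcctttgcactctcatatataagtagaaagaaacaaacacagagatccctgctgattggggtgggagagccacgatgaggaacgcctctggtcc
Such a match was found in 16.9% of all 27025 promoters, in 33 of 214 promoters (15.4%) of genes higher in NK-gated cells and in 25 of 190 (13.2%) of genes lower in them. The T-box site TCACACC, on either strand, was found in 3.96% of all promoters, in 5 of 214 (2.34%) of the higher genes and in 10 of 190 (5.26%) of the lower ones. The shares for higher genes thus lay near or under those of all promoters, and a match is a run of letters, not a bound site.

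Of 23 transcription factors tested, 7 rose and 4 fell (median log2 change 0.10). Eomes, which maintains mature NK cells, had 209 and 167 CPM in NK-gated cells, against 25.1 and 13.9 CPM in CD3+ cells (log2 change 3.28 ± 0.29 SE, adjusted p = 0.000239). Irf8, a factor of myeloid cells that NK cells also use, had 805 and 643 CPM in NK-gated cells, against 134 and 162 CPM in CD3+ cells (log2 change 2.29 ± 0.19 SE, adjusted p = 7.94e-05). Tbx21, which encodes T-bet, had 255 and 181 CPM in NK-gated cells, against 59.0 and 65.7 CPM in CD3+ cells (log2 change 1.80, adjusted p = 0.00501). In each of the 3 genes both NK-gated values lay above both CD3+ values. At 1000 UMIs a cell, Eomes was seen in 20.7% and 13.2% of NK-gated cells, 1.97% and 0.690% of CD3+ cells and in 0 of 179 and 0 of 51 B-gated cells and 0 of 3295 and 0 of 3886 phagocytes, which allows up to 1.68% and 5.88%, and 0.0910% and 0.0772%. Irf8 was seen in 58.6% and 53.9% of NK-gated cells, 9.45% and 9.66% of CD3+ cells, 17.3% and 15.7% of B-gated cells and 18.6% and 17.0% of phagocytes, so its share in NK-gated cells stood above those in the 3 other classes. Prf1 was seen in 34.2% and 22.4% of NK-gated cells, 7.48% and 7.59% of CD3+ cells, and in 0 cells of both other classes under the same limits. Without thinning the NK-gated shares were 46.4% and 53.9% for Eomes, 86.6% and 88.2% for Irf8 and 66.1% and 53.9% for Prf1; thinning left out 1 NK-gated and 1 CD3+ cell of library 1. Klf2, which limits activation and guides exit from tissue, rose to 578 and 391 CPM in NK-gated cells, against 171 and 187 CPM in CD3+ cells (log2 change 1.44, adjusted p = 0.00292), and Runx3, Stat4 and Bach2 rose with log2 changes of 0.88, 0.87 and 0.61. Ikzf2, which encodes Helios and is high in regulatory T cells, had 97.6 and 57.7 CPM in NK-gated cells, against 1022 and 963 CPM in CD3+ cells (log2 change -3.69 ± 0.23 SE, adjusted p = 2.35e-05). Tox, a factor of exhausted T cells, had 319 and 258 CPM in NK-gated cells, against 916 and 789 CPM in CD3+ cells (log2 change -1.59, adjusted p = 0.0465), and Tox2 had 0 UMIs in NK-gated cells, at least 6.73-fold lower. Tbx21, Runx3, Stat4, Bach2 and Tox did not pass without the library block, and Runx3 and Bach2 did not without cells with C1q UMIs or at 1000 UMIs a cell. Bach2 also missed with no filter, and Tox by DESeq2 and at a gate of 3 UMIs.

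**Figure D4:**
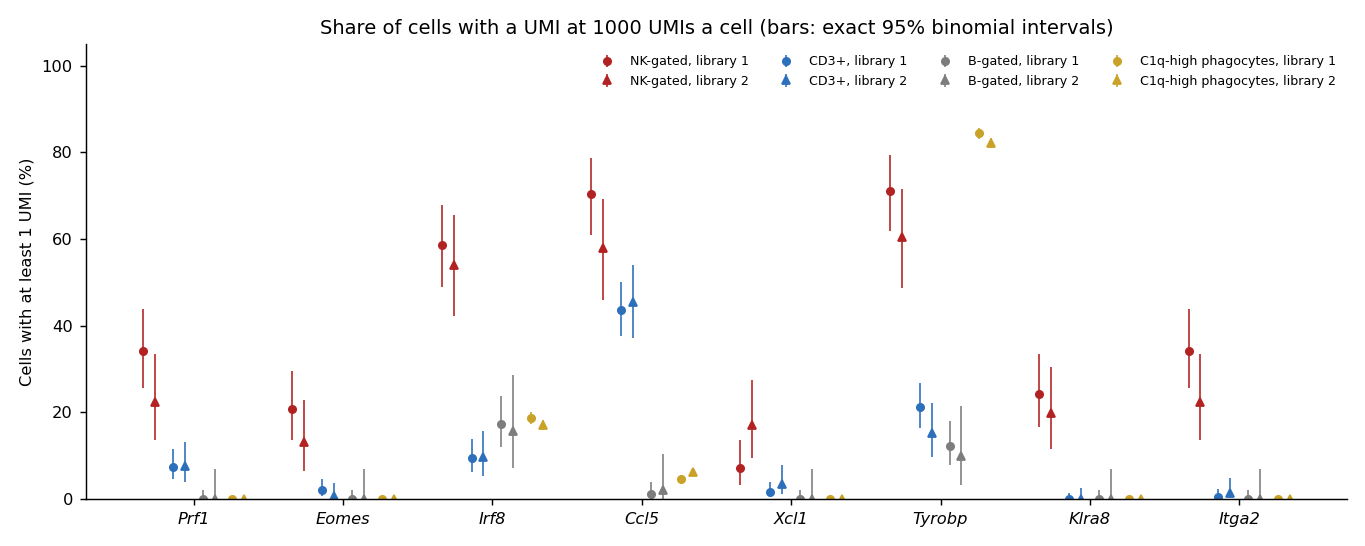
Share of cells in percent with at least 1 UMI of a gene after every cell was thinned to 1000 UMIs, for NK-gated, CD3+, B-gated and C1q-high phagocyte classes from left to right, with circles for library 1, triangles for library 2 and exact 95% binomial intervals as bars. Prf1, Eomes, Klra8 and Itga2 are near 0 outside NK-gated and CD3+ cells, while Tyrobp is highest in phagocytes.

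Of 11 tested cytokine and chemokine genes 3 rose and 3 fell (median log2 change 0.23). Xcl1, which attracts cross-presenting dendritic cells, had 108 and 473 CPM in NK-gated cells, against 31.2 and 58.0 CPM in CD3+ cells (log2 change 2.52 ± 0.28 SE, adjusted p = 0.000926). Ccl5 had 3301 and 3473 CPM in NK-gated cells, against 1301 and 1505 CPM in CD3+ cells (log2 change 1.27 ± 0.21 SE, adjusted p = 0.00503), and Tgfb1 had 582 and 533 CPM in NK-gated cells, against 286 and 240.5 CPM in CD3+ cells (log2 change 1.09, adjusted p = 0.0104). Of the other chemokines of the list, Ccl3 had 63.7 and 225 CPM in NK-gated cells, against 207 and 44.9 CPM in CD3+ cells (log2 change 0.23, -1.70 and 2.32 by library, adjusted p = 0.907), and Ccl4 had 388 and 364 CPM in NK-gated cells, against 324 and 136 CPM in CD3+ cells (log2 change 0.70, adjusted p = 0.433). Xcl1 differed more than 4-fold between the NK-gated sums of the 2 libraries, and Ccl5 hardly differed. Ifng, the signature cytokine of NK cells, had 67.7 and 52.0 CPM in NK-gated cells, against 146 and 20.9 CPM in CD3+ cells (log2 change -0.23, adjusted p = 0.85), and the CD3+ libraries lay on both sides of the NK-gated ones. Il10, Areg and Csf1 fell, by 3.39, 4.34 and 2.36 on the log2 scale. Xcl1, Ccl5, Tgfb1, Csf1 and Il10 did not pass without the library block, nor did Csf1 and Areg without cells with C1q UMIs, nor Csf1 without the cells of highest doublet score.

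Of 19 tested cytokine receptors 2 rose and 2 fell (median 0.13). Il12rb2, the signalling chain of the receptor for interleukin 12, had 833 and 618 CPM in NK-gated cells, against 216 and 235 CPM in CD3+ cells (log2 change 1.70 ± 0.28 SE, adjusted p = 0.00543), and Il18rap, for interleukin 18, had 436 and 318 CPM in NK-gated cells, against 173 and 109.8 CPM in CD3+ cells (log2 change 1.42, adjusted p = 0.00485). Il7r, the receptor of naive and memory T cells and of innate lymphoid cells, had 257 and 173 CPM in NK-gated cells, against 698 and 827 CPM in CD3+ cells (log2 change -1.85 ± 0.27 SE, adjusted p = 0.00266), and Il21r had 49.8 and 46.2 CPM in NK-gated cells, against 125 and 151 CPM in CD3+ cells (log2 change -1.52, adjusted p = 0.00498). Il2rb, the chain shared by the receptors for interleukins 2 and 15, had 1116 and 947 CPM in NK-gated cells, against 498 and 493 CPM in CD3+ cells and did not pass (log2 change 1.04, adjusted p = 0.123). Both of its NK-gated values lay above both CD3+ values, and it did pass under 6 of the alternatives, 1000 UMIs a cell among them. Il18rap did not pass without the block.

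Homing receptors were divided, with 3 of 13 higher and 3 lower (median log2 change -0.14). Cxcr4, the receptor for CXCL12, had 271 and 356 CPM in NK-gated cells, against 115 and 156 CPM in CD3+ cells (log2 change 1.22 ± 0.17 SE, adjusted p = 0.00266). Cxcr6, a receptor of tissue-resident lymphocytes, had 1.99 and 13.5 CPM in NK-gated cells, against 97.3 and 123 CPM in CD3+ cells (log2 change -3.83 ± 0.42 SE, adjusted p = 0.000843), and Cx3cr1, the fractalkine receptor, had 17.9 and 19.2 CPM in NK-gated cells, against 70.0 and 101 CPM in CD3+ cells (log2 change -2.19, adjusted p = 0.00331). Cxcr4 and Cxcr6 thus moved in opposite directions in both libraries. S1pr1, which lets lymphocytes leave tissue, fell too, with 15.9 and 7.70 CPM in NK-gated cells, against 51.4 and 47.2 CPM in CD3+ cells (log2 change -2.07, adjusted p = 0.0134). The calls of S1pr1 and Cx3cr1 ended at 1000 UMIs a cell.

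Integrins added the classic mouse NK marker: Itga2, which encodes CD49b, had 347 and 171 CPM in NK-gated cells, against 7.11 and 10.8 CPM in CD3+ cells (log2 change 4.88 ± 0.34 SE, adjusted p = 3.83e-05), and at 1000 UMIs a cell it was seen in 34.2% and 22.4% of NK-gated cells and 0.394% and 1.38% of CD3+ cells. Its gene lies at chr13:114833081-114932100 (mm10). Of 11 integrin genes tested 2 rose and 1 fell (median 0.09). Its partner chain Itgb1 had 510.0 and 491 CPM in NK-gated cells, against 231 and 199 CPM in CD3+ cells (log2 change 1.22, adjusted p = 0.00159), and Itgav had 243 and 281 CPM in NK-gated cells, against 1259 and 1102 CPM in CD3+ cells (log2 change -2.16, adjusted p = 0.000657). Itga1, which encodes CD49a of type 1 innate lymphoid cells (ILC1), had 97.6 and 140.5 CPM in NK-gated cells, against 77.6 and 52.6 CPM in CD3+ cells (log2 change 0.87, adjusted p = 0.153), and Itgam, which encodes CD11b, had 161 and 169 CPM in NK-gated cells, against 166 and 161 CPM in CD3+ cells (log2 change 0.01, adjusted p = 0.989).

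The members were checked against markers of neighbouring cell types. Of the fixed NK markers besides the gate genes, Eomes, Prf1, Klrk1 and Txk rose and Nkg7 did not pass. Of 12 tested genes tied to ILC1 or tissue residency 1 rose and 3 fell (Inpp4b, Cxcr6 and Il7r), with a median log2 change of -0.43. No ILC1 class was compared, so these changes against CD3+ cells cannot tell NK cells from ILC1. The gene that rose was Car2, a carbonic anhydrase, with 171 and 281 CPM in NK-gated cells, against 9.84 and 12.4 CPM in CD3+ cells (log2 change 4.33 ± 0.30 SE, adjusted p = 3.83e-05). Markers of other innate lymphoid cells were sparse, and Il1rl1, the interleukin 33 receptor of ILC2 and regulatory T cells, fell: it had 1.99 and 0 CPM in NK-gated cells, against 50.8 and 12.4 CPM in CD3+ cells (log2 change -4.94, adjusted p = 0.0228), though not without the block. Il17a, Il22 and Il13 had 0 UMIs in NK-gated cells of both libraries. Basophil and mast cell, erythroid, plasmacytoid dendritic cell and neural markers also had 0 UMIs in NK-gated cells. RNA of myeloid cells was present in many members. The 9 macrophage markers summed to 4069 and 1096 CPM in NK-gated cells, against 4006 and 2533 CPM in CD3+ cells, with Ms4a7 at 0 in NK-gated cells of library 2; 1 cell supplied 1533 CPM in library 1, and 34.8% and 76.3% of NK-gated cells carried 3 or more of these UMIs, against 51.8% and 75.9% of CD3+ cells. The 4 monocyte markers summed to 798 and 643 CPM in NK-gated cells, against 966 and 1091 CPM in CD3+ cells, and 33.9% and 39.5% of NK-gated cells carried 3 or more of these UMIs, against 56.9% and 57.9% of CD3+ cells. The 6 dendritic cell markers summed to 2184 and 3162 CPM in NK-gated cells, against 1803 and 3664 CPM in CD3+ cells, with Xcr1 at 0 in NK-gated cells of both libraries. The 2 platelet markers summed to 29.0 and 1053 CPM in NK-gated cells, of which 662 CPM in library 2 came from 1 cell, against 427 and 262 CPM in CD3+ cells. None of the tested macrophage, monocyte, dendritic cell or platelet markers differed from CD3+ cells at adjusted p under 0.05. Against CD8-gated cells the monocyte marker Ccr2 was higher. The part of such RNA in the results was not tested.

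Members were also divided by genes of NK maturation. Mouse NK cells pass from a Cd27 stage to a stage with CD11b, KLRG1 and S1PR5. Members with a UMI of Itgam, Klrg1 or S1pr5 and none of Cd27 numbered 29 and 30 and are called Itgam-gated, since Itgam supplied 64 and 77 of these UMIs, Klrg1 3 and 3 and S1pr5 2 and 8; those with Cd27 alone numbered 8 and 6 (Cd27-gated), those with both 6 and 6, and those with neither 69 and 34. The Cd27-gated sums held under 10 cells each, so values are given with no test, for genes chosen after their values were seen. Itgam is a myeloid gene too, and myeloid RNA moved with this division. Lyz2 had 2574 and 858 CPM in Itgam-gated members, against 50.5 and 147 CPM in Cd27-gated members, and Cd74 had 3323 and 3623 CPM in Itgam-gated members, against 75.8 and 29.4 CPM in Cd27-gated members. H2-Ab1 had 1340 and 2288 CPM and Csf1r 146 and 52.4 CPM in Itgam-gated members, against 0 UMIs of either in Cd27-gated members. The values therefore cannot be read as maturation, and the part of myeloid RNA in them was not tested. Gzmc had 11.7 and 238 CPM in Itgam-gated members, against 707 and 2533 CPM in Cd27-gated members. Emb, a membrane glycoprotein, had 644 and 1082 CPM in Itgam-gated members, against 3157 and 3239 CPM in Cd27-gated members, and Kit, the stem cell factor receptor, had 87.8 and 66.7 CPM in Itgam-gated members, against 479.9 and 236 CPM in Cd27-gated members. Zeb2, a factor of late NK maturation that phagocytes also carry (1446 and 1233 CPM in C1q-high phagocytes), had 749 and 596 CPM in Itgam-gated members, against 202 and 324 CPM in Cd27-gated members. Gzmc, Emb and Kit were lower and Zeb2 was higher in the Itgam-gated sums of both libraries. Over all members, 1 of 12 tested maturation genes rose against CD3+ cells (Kit) and 4 fell (Cd27, Cx3cr1, Thy1 and Il7r), with a median log2 change of -0.65. Kit and Cd27 did not pass without the block, without cells with C1q UMIs or at 1000 UMIs a cell, and Thy1 did not pass in the first 2 of these, by DESeq2 or without CD3+ cells that carried NK gate UMIs.

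The series' title concerns hypoxia and histone lactylation in neutrophils, and genes of hypoxia and lactate handling were measured in NK-gated cells too. Of 17 tested hypoxia response genes 1 rose and 2 fell (median log2 change -0.14). Of 20 genes of glycolysis and lactate 0 rose and 2 fell (median -0.35). Of these 20, 1 was higher and 7 were lower at an unadjusted p under 0.05, and DESeq2 called 1 higher and 2 lower. Over all 9514 genes tested, 1676 had such an unadjusted p in either direction. Over all genes tested 3.02% were higher and 2.61% lower, and with so few calls these counts are no result about either list. Hif1a, the oxygen-regulated subunit of the hypoxia factor, had 259 and 266 CPM in NK-gated cells, against 737 and 703 CPM in CD3+ cells (log2 change -1.46 ± 0.16 SE, adjusted p = 0.000585). Vegfa, one of its known targets, had 171 and 202 CPM in NK-gated cells, against 110.4 and 95.9 CPM in CD3+ cells (log2 change 0.83, adjusted p = 0.0479). The 2 genes thus ran in opposite directions in both libraries. Slc16a3, a lactate exporter, had 45.8 and 40.4 CPM in NK-gated cells, against 101 and 76.6 CPM in CD3+ cells (log2 change -1.04, adjusted p = 0.0213), and Pkm, a pyruvate kinase, had 273 and 237 CPM in NK-gated cells, against 485 and 365 CPM in CD3+ cells (log2 change -0.73, adjusted p = 0.0274). Ldha, which makes lactate, had 211 and 298 CPM in NK-gated cells, against 301 and 346 CPM in CD3+ cells (log2 change -0.36, adjusted p = 0.312). Of 2 genes that passed among 16 receptors and mediators of suppressive signals, Smad3, a transducer of TGF-beta, rose (log2 change 1.29) and Nt5e, which makes adenosine, fell (log2 change -1.21). Of 21 interferon-stimulated genes 1 fell (Ifi27l2a, log2 change -2.32, -1.47 and -4.25 by library) and 0 rose. At an unadjusted p under 0.05, 1 was higher and 2 were lower, and DESeq2 called 0 higher and 1 lower. Hif1a and Nt5e passed under every alternative that was tested; Vegfa, Mxi1, Pkm, Slc16a3, Smad3 and Ifi27l2a did not pass without the block, and Vegfa and Smad3 did not without cells with C1q UMIs. Vegfa and Ifi27l2a also missed at a gate of 3 UMIs, Vegfa without CD3+ cells that carried NK gate UMIs, and Slc16a3 at 1000 UMIs a cell.

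Calls of cell cycle genes depended on the fit. Of 18 tested, 0 rose and 0 fell against CD3+ cells by edgeR, although the median log2 change was -1.77, or -1.35 with the 2 genes unseen in NK-gated cells at their bounds; 10 were lower and 0 higher at an unadjusted p under 0.05, and DESeq2 called 1 lower and 0 higher. Top2a had 13.9 and 7.70 CPM in NK-gated cells, against 133 and 41.0 CPM in CD3+ cells (log2 change -3.02 ± 0.85 SE, adjusted p = 0.0719), and Mki67 had 15.9 and 11.5 CPM in NK-gated cells, against 85.3 and 42.5 CPM in CD3+ cells (log2 change -2.23 ± 0.69 SE, adjusted p = 0.103). Both passed with the 2 classes fitted alone, with no filter, without cells with C1q UMIs and without the cells of highest doublet score, and Top2a also by DESeq2, each time as lower. Against CD8-gated cells these were the 2 of 16 tested genes that fell, and 0 rose: Mki67 had 16.3 and 11.9 CPM in NK-gated cells, against 111 and 77.9 CPM in CD8-gated cells (log2 change -2.75, adjusted p = 0.0478), and Top2a had 14.3 and 7.92 CPM in NK-gated cells, against 185 and 63.4 CPM in CD8-gated cells (log2 change -3.48, adjusted p = 0.0336). Neither passed in that comparison without the library block, nor did Mki67 by DESeq2.

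**Figure D5:**
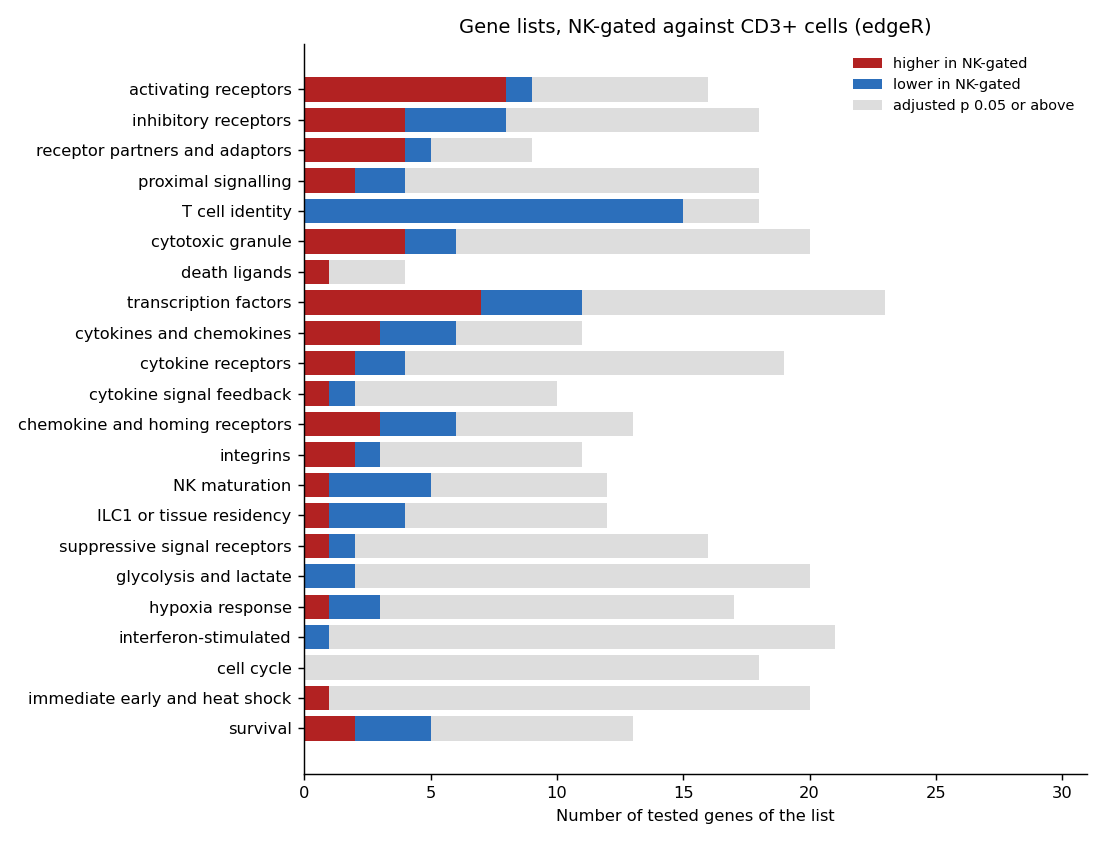
Number of tested genes per list that were higher (red), lower (blue) or not past adjusted p under 0.05 (grey) in NK-gated against CD3+ cells. Activating receptors and transcription factors hold the most genes that rose, and T cell identity the most that fell.

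The largest changes across all genes brought in genes outside these lists. Among the 12 largest rises that met the rule for naming were Angpt1, an angiopoietin that acts on vessels, with 147 and 127 CPM in NK-gated cells, against 0 and 0.773 CPM in CD3+ cells (count ratio NK-gated over CD3+ cells 416, 95% interval 73.4 to 16545 for counting error only), and Eya1, a transcriptional coactivator, with 167 and 119 CPM in NK-gated cells, against 0.547 and 1.55 CPM in CD3+ cells (count ratio NK-gated over CD3+ cells 145, 95% interval 48.5 to 709 for counting error only). Fam184a had 99.6 and 92.4 CPM in NK-gated cells, against 1.64 and 0 CPM in CD3+ cells (count ratio NK-gated over CD3+ cells 97.1, 95% interval 32.2 to 479 for counting error only). Ppargc1a, a coactivator of mitochondrial genes, had 43.8 and 32.7 CPM in NK-gated cells, against 1.09 and 0 CPM in CD3+ cells (count ratio NK-gated over CD3+ cells 57.9, 95% interval 15.0 to 495 for counting error only). Both NK-gated libraries carried each of these, while CD3+ cells held 3 UMIs or fewer. Khdc1a had 13 and 8 UMIs in NK-gated cells and 0 in CD3+ cells, at least 20.8-fold higher, and did not pass without the block or by DESeq2. The others were Klra4, Klra8, D5Ertd615e, Sema6a, Klri2, Itga2 and Rasl12. Of the 12 largest falls, 11 had 0 UMIs in NK-gated cells: besides Themis, Cd8a, Foxp3, Cd4 and Plcg1 these were Gldc, Itgb8, Izumo1r, Lrig1 (not called without cells with C1q UMIs), Gpm6b and Rgs8, at least 20.6-fold, 19.6-fold, 17.3-fold, 10.2-fold, 9.65-fold and 7.18-fold lower. The remaining gene was Cd6. Izumo1r, the folate receptor of regulatory T cells, and Itgb8, which activates TGF-beta, are genes that regulatory T cells are known to carry.

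CD8 T cells are the lymphocytes most like NK cells in how they kill, and against the CD8-gated cells 251 genes were higher in NK-gated cells (2.98% of 8435 tested) and 207 lower (2.45%), with a median log2 change of -0.03 over all genes tested. The NK-gated cells are the same as before, so both comparisons share them. Of the CD8-gated cells, 28 of 114 and 10 of 60 by library carried at least 2 UMIs of the NK gate genes. No fit without those cells was run in this comparison. Without the block 132 and 118 genes passed, and without cells with any C1q UMI 126 and 112. The largest rises were Eya1, D5Ertd615e, Vegfc, Klra4 and Angpt1. Eya1 had 171 and 123 CPM in NK-gated cells and 0 UMIs in CD8-gated cells, at least 66.4-fold higher, and Vegfc, a lymphatic growth factor, had 69.3 and 39.6 CPM in NK-gated cells, against 0 UMIs in CD8-gated cells, at least 24.5-fold higher. Vegfc did not pass without cells with C1q UMIs, nor did Gpm6b. The largest falls were Themis, Gldc, Rgs8, Plcg1 and Gpm6b, all with 0 UMIs in NK-gated cells.

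By role, 7 of 16 activating receptors rose and 2 fell against CD8-gated cells, and 10 of 15 T cell genes fell. Gzmb, which encodes granzyme B, passed here, with 292 and 337 CPM in NK-gated cells, against 107 and 116 CPM in CD8-gated cells (log2 change 1.49 ± 0.34 SE, adjusted p = 0.0185), though not without the block or by DESeq2. Gzmk had 6.12 and 1.98 CPM in NK-gated cells, against 71.5 and 83.4 CPM in CD8-gated cells (log2 change -4.28, adjusted p = 0.00578). Gzmf had 0 and 5.94 CPM in NK-gated cells, against 216 and 1294 CPM in CD8-gated cells (count ratio CD8-gated over NK-gated cells 216, 95% interval 73.6 to 1049 for counting error only), and the CD8-gated libraries differed widely from each other. Prf1 had 430.1 and 239.6 CPM in NK-gated cells, against 194 and 192 CPM in CD8-gated cells and did not pass (log2 change 0.75, adjusted p = 0.143), and Ccl5 had 3378 and 3574 CPM in NK-gated cells, against 2459.7 and 2626 CPM in CD8-gated cells (log2 change 0.45, adjusted p = 0.296). Xcl1 had 110.1 and 487 CPM in NK-gated cells, against 44.7 and 7.25 CPM in CD8-gated cells (log2 change 3.02, adjusted p = 0.0202; 1.30 and 6.03 by library), and its call ended without the block and by DESeq2. Eomes rose with 214 and 172 CPM in NK-gated cells, against 40.8 and 29.0 CPM in CD8-gated cells (log2 change 2.50, adjusted p = 0.00169), and Itgax and Itgb7 rose with log2 changes of 1.63 and 1.35 (for Itgb7 0.70 and 2.14 by library). The checkpoint genes Pdcd1 and Lag3 fell in this comparison too. Pdcd1 had 24.5 and 9.90 CPM in NK-gated cells, against 276 and 207 CPM in CD8-gated cells (log2 change -3.82 ± 0.33 SE, adjusted p = 1.75e-05), and Lag3 had 6.12 and 9.90 CPM in NK-gated cells, against 139 and 121 CPM in CD8-gated cells (log2 change -4.02 ± 0.58 SE, adjusted p = 0.000824). Syk, a kinase used by activating receptors, rose (log2 change 0.98, adjusted p = 0.0185), while Lck fell (log2 change -1.09, adjusted p = 0.00895). Itgb7, Syk and Lck did not pass without the block, nor did Itgax, Itgb7, Syk and Gzmk without cells with C1q UMIs. Whether a gene's change against CD8-gated cells differs from its change against all CD3+ cells was not tested.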

How the data were processed

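Leukocytes of 2 CD45+ brain tumor libraries were analysed, and 4 sorted neutrophil libraries were put through the same gate. The authors deposited UMI counts per gene and cell; reads were processed with Cell Ranger 7.1.0 and the mm10 build, per the submitters' processing notes, and their gene annotation was not given in the sources used here. The 6 matrices held 37490 barcodes and those of the CD45+ libraries 9418 and 8851, with 82077047 and 129422458 UMIs; no UMI cut beyond the gate was added, and doublets were kept, except in 1 alternative that left out the 700 and 607 cells of highest Scrublet score (scanpy 1.11.5).

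Members, gene lists and tests were chosen with earlier results of these data known. Counts were summed per library and class over NK-gated, CD3+, B-gated and C1q-high cells, which share 1 estimate of the spread, with CD3+ cells split into CD8-gated, CD4-gated and other cells for the second comparison. Sums were tested with edgeR 4.0.16 (R 4.3.3; TMM, filterByExpr, quasi-likelihood) with the library as a block, since classes of 1 library share their sample, and p-values were adjusted over all genes tested. SE is the log2 change divided by the square root of F. Genes used by the gates were left out of tests, as were Cd8a, Cd8b1 and Cd4 against CD8-gated cells. Genes at 0 UMIs in a class were given as a bound against 3 counts over that class. In simulated sums with no library effect, 200 genes were changed, all drawn from those with 20 CPM or more in the compared class. Against CD3+ cells 51% of 2-fold and 94% of 4-fold changes were found (9163 genes, 9 false calls). Against CD8-gated cells these were 40% and 90% (8231 genes, 7 false calls). Recovery of genes at lower levels was not simulated. For shares, cells were thinned to 1000 UMIs (seed 1) and shallower cells left out. DESeq2 1.42.0, other gates, thinned sums and other choices served as alternatives. Named genes were, per list, first those past the test with the largest change and then the best known members that did not pass, and over all genes the 12 largest rises and falls with a mean of 20 CPM or more, 5 each against CD8-gated cells, leaving out gate genes, T cell receptor segments and predicted genes; further members of the lists were added by name. By gene ID, 32158 of 32285 genes matched GENCODE vM21 for positions. A few members of the lists are counted but not reported here by name.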

Additional observations from a re-analysis of the deposited data

How the results depend on the processing

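Without the library block, which pairs the classes of 1 library, 136 genes were higher and 121 lower against CD3+ cells, and 132 and 118 against CD8-gated cells. With no filter on low counts 462 genes were lower against CD3+ cells and 346 against CD8-gated cells. With NK-gated and CD3+ cells fitted alone 378 were lower, and without the cells of highest doublet score 410 were lower. Without cells with any C1q UMI 126 genes were higher and 112 lower against CD8-gated cells; that setting left 87 and 33 members. The counts of calls under the other settings stayed within 1.5 times the reported ones, including 362 higher and 272 lower against CD3+ cells by DESeq2, and 283 and 250 when cells with a barcode of another library were left out, a setting chosen after seeing the data. Of the 115 called genes named or listed against CD3+ cells, 39 did not pass without the block, 19 of the 107 that could be fitted without cells with C1q UMIs, 13 of the 96 that could be fitted at 1000 UMIs a cell, 9 by DESeq2, 5 at a gate of 3 UMIs, 3 of the 112 that could be fitted without CD3+ cells that carried NK gate UMIs, and 2 each with no filter and without the cells of highest doublet score. Of 94 such genes against CD8-gated cells, 31 did not pass without the block, 29 of the 90 that could be fitted without cells with C1q UMIs, 12 by DESeq2 and 4 each at a gate of 3 UMIs and without the cells of highest doublet score. Where they could be fitted, none of these changed direction, in either single library or under any of these settings; the causes were not tested. With 1 library left out no test is possible, as no residual degrees of freedom among samples remain.

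The share of NK-gated cells was 1.82% and 1.48% by library at a gate of 1 UMI and 0.930% and 0.379% without cells with any C1q UMI. Thinned to 2000 UMIs instead of 1000, Prf1 was seen in 47.0% and 36.0% of members, Irf8 in 71.0% and 69.3% and Eomes in 34.0% and 30.7%; without thinning the shares were 66.1% and 53.9%, 86.6% and 88.2%, and 46.4% and 53.9%, so these shares follow depth. The alternatives of the maturation comparison were not run, since it had 8 and 6 Cd27-gated cells. Depth limits what is seen in a member: with a median of 2953 and 4984 UMIs a cell, a gene that was not seen in a member may be present, and changes of 2-fold were often missed in simulated sums.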

Other observations

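Survival genes differed in both directions: of 13 tested, 2 rose and 3 fell against CD3+ cells (median log2 change -0.28). Bcl2, which blocks cell death, had 2225 and 1972 CPM in NK-gated cells, against 777 and 893 CPM in CD3+ cells (log2 change 1.32 ± 0.20 SE, adjusted p = 0.00357), and Bcl2l11, which encodes its opponent BIM, had 994 and 831 CPM in NK-gated cells, against 409 and 389 CPM in CD3+ cells (log2 change 1.19 ± 0.17 SE, adjusted p = 0.00242). Both therefore rose together in each library. Tnfrsf18, which encodes the costimulatory receptor GITR, had 87.7 and 90.4 CPM in NK-gated cells, against 259 and 299 CPM in CD3+ cells (log2 change -1.64, adjusted p = 0.00272), and Bcl2l1 (log2 change -1.52, -0.88 and -2.85 by library) and Tnfrsf9 also fell; these last 2 did not pass without the library block or by DESeq2, nor did Bcl2l1 without cells with C1q UMIs. Of 10 genes of cytokine signal transduction and feedback, Jak1 rose, with 1078 and 1033 CPM in NK-gated cells, against 526 and 543 CPM in CD3+ cells (log2 change 0.98, adjusted p = 0.00368), and Stat5b fell (log2 change -1.15). Cish, a brake on interleukin 15 signals in NK cells, had 112 and 114 CPM in NK-gated cells, against 119.7 and 132 CPM in CD3+ cells (log2 change -0.16, adjusted p = 0.766). Of 20 immediate early and heat shock genes 1 rose and 0 fell. The gene that rose was Dusp2, with 279 and 468 CPM in NK-gated cells, against 158 and 195 CPM in CD3+ cells (log2 change 1.06, adjusted p = 0.00922). At an unadjusted p under 0.05, 3 were higher and 2 were lower, and DESeq2 called 1 higher and 0 lower. The call of Dusp2 and that of Stat5b ended without the block, and that of Dusp2 also at 1000 UMIs a cell.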
